A study of Mus musculus with 6 samples.

Results

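The CD-numbered surface antigen genes are genes that carry the cluster of differentiation number of their protein as a symbol, such as Cd34 or Cd72. These numbers are the labels under which antibodies to leukocyte surface proteins are catalogued. The members were all gene symbols made of Cd, a number and at most 1 further letter with digits, without Cd14, Cd63, Cd68, Cd74, Cd177, Cd209a, Cd247 and Cd300c. That gave 71 members of 16135 genes listed in the 6 libraries. The rule used symbols and no measured value, but it was set with earlier results of these data known. What leaving out the named genes did to the counts below was not tested. The genes share a naming system and not a function or an ancestor, and they range from stem cell sialomucins to chains of the T and B cell receptors.

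The libraries held polyadenylated RNA of common dendritic cell progenitors from bone marrow, precursors that give rise to dendritic cells. All cells came from wildtype C57BL/6 mice aged 6 to 8 weeks. They were flow-sorted into 3 subsets with 2 libraries each, CD115+Ly6C+, CD115-Ly6C- and CD115+Ly6C-. They are called Ly6C+, CD115- and CD115+Ly6C- below. The CD115 antigen binds the macrophage growth factor M-CSF and is encoded by Csf1r, and Ly6C is an antigen of monocytes and their precursors, encoded by Ly6c1 and Ly6c2. The labels do not say that the 2 libraries of a subset came from separate mice or sorts, so the p-values below measure the spread between these libraries, which may be technical. The labels also do not give the number of mice per library or the other markers of the sort gate.

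Surface antigens place a cell in the hematopoietic tree. Progenitor antigens such as CD34 are lost as cells mature, lymphoid antigens such as CD27 and CD72 come up on the path to lymphocytes, and inhibitory receptors such as CD300a belong to myeloid cells. Common dendritic cell progenitors stand between these programmes, and antibodies to further CD antigens are the tool with which such a population is split. The comparison of the 3 subsets asks which antigen genes, besides those of the sort, part them. RNA and not surface protein was measured here. In a bulk library, fewer cells of a type and less RNA per cell cannot be told apart.

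The sort was visible in its own genes. Ly6c2 stood at 2117 and 2005 FPKM in Ly6C+, 70.4 and 101 FPKM in CD115- and 185 and 289 FPKM in CD115+Ly6C-. FPKM are fragments per kilobase of transcript scaled to the size of the library, so they allow levels of different genes to be compared. Csf1r stood at 142 and 133 FPKM in Ly6C+, 62.8 and 74.2 FPKM in CD115- and 109.8 and 138 FPKM in CD115+Ly6C-, so its transcript was lower in the subset sorted as CD115- but still present. Expected counts summed to 17961541 to 19450329 per library, and 61 to 69 members were listed above 0 in a library. Among marker lists of other cells, monocyte and macrophage markers (9 genes) summed to 5020 and 5740 counts scaled to library size (CPM) in Ly6C+, 688 and 892 in CD115-, and 2360 and 2400 in CD115+Ly6C-. Neutrophil markers (10 genes) summed to 4190 and 3910, 310.0 and 149, and 230.0 and 909 CPM in the same subsets. T and NK lineage markers (10 genes) summed to 59.2 and 61.2, 337 and 336, and 121 and 108 CPM. B lineage markers (9 genes) summed to 6.97 and 9.16, 34.6 and 29.8, and 4.56 and 9.92 CPM. Within the T and NK list, Lck stood at 2.47 and 1.9 FPKM in Ly6C+, 78.2 and 76.7 FPKM in CD115- and 13.5 and 14.6 FPKM in CD115+Ly6C-, Nkg7 at 37.9 and 48.9, 229.8 and 235.5, and 108 and 79.2 FPKM, and Lat at 0.92 and 1.47, 20.9 and 16.5, and 3.31 and 3.21 FPKM. Not all of the list followed that order. Klrd1 stood at 34.7 and 28, 57.3 and 48.5, and 26.1 and 32.8 FPKM, and Gzma at 1.74 and 0.87, 0.47 and 0.15, and 0.22 and 0.53 FPKM. Cd3e, Cd3g and Bcl11b of the same list were at 0.31 FPKM or less in every library. Within the B lineage list, Ebf1 stood at 0.03 and 0.02, 1.61 and 1.62, and 0 and 0.09 FPKM in the same subsets. Vpreb1 stood at 2.21 and 5.28, 11.4 and 7.92, and 3.25 and 6.79 FPKM. Igll1, at 4.05 and 2.4, 4.73 and 3.79, and 0.82 and 2.13 FPKM, overlapped between Ly6C+ and CD115-. Pax5 was at 0.11 FPKM or less and Ighm was listed in none. Plasmacytoid dendritic cell markers (7 genes) summed to 677 and 559, 835 and 876, and 734 and 740 CPM in the same subsets. Mature dendritic cell markers (7 genes) summed to 56.2 and 48, 105 and 101, and 69.9 and 72.2 CPM. Erythroid markers (9 genes) lay at 5.78 to 19.3 CPM and megakaryocyte markers (6 genes) at 0.944 to 5.62 CPM. Several of these lists move with the member genes described below, and their part in those results was not tested.

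The members spanned the whole range of expression. Of the 71, 8 had a mean of at least 100 FPKM over the libraries, 17 lay from 10 to 100, 20 from 1 to 10 and 26 below 1 FPKM. The highest were Cd48, Cd52, Cd34, Cd47, Cd53 and Cd164. Genes with low counts were removed before testing, which left 56 members and removed 15, all with a mean of at most 0.95 FPKM. Of the 56, 8 reached the filter level in a single subset, so that they were tested because they were high there. They included Cd4, Cd40, Cd55, Cd101, Cd200r3, Cd209d and Cd276. Cd4 reached it in CD115- alone, and Cd40, Cd101 and Cd209d in Ly6C+ alone. The filter thus favoured the direction of their calls given below.

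Between Ly6C+ and CD115-, more member genes were lower than higher in Ly6C+, and between CD115- and CD115+Ly6C- nearly all that differed were higher in CD115-. A gene was called where the edgeR quasi-likelihood test gave a Benjamini-Hochberg adjusted p under 0.05 over all 12127 genes tested. In Ly6C+ against CD115-, 24 of the 56 members (42.9%) were lower, where 20.1% of all genes tested were. In the other direction 10 members (17.9%) were higher, close to the 19.2% of all genes. The median log2 fold change was -0.50 over the members tested and -0.03 over all genes. In either direction these were 34 members (60.7%), against 39.3% of all genes. In CD115- against CD115+Ly6C-, 18 members (32.1%) were higher, against 8.43% of all genes, and 1 (1.79%) was lower, against 6.78% of all genes. The medians there were 0.51 and 0.02. In Ly6C+ against CD115+Ly6C-, 7 members (12.5%) were higher and 9 (16.1%) lower, against 5.26% and 4.34% of all genes, with medians of 0.06 and -0.01. In either direction 16 members (28.6%) and 9.6% of all genes were called there, and 19 members (33.9%) and 15.2% of all genes in CD115- against CD115+Ly6C-. These comparisons share libraries, so their counts are not independent. The counts include Cd4, Cd40, Cd101 and Cd209d, whose direction the filter favoured. The 7 members higher in Ly6C+ than in CD115+Ly6C- became 1 or 4 when replicate 1 or 2 of CD115+Ly6C- was left out, and 3 when Ly6C+ replicate 2 was, and the 9 lower became 6 without either CD115+Ly6C- library. The 18 members higher in CD115- than in CD115+Ly6C- became 11 without CD115+Ly6C- replicate 1 and 10 without CD115- replicate 1.

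**Figure D1:**
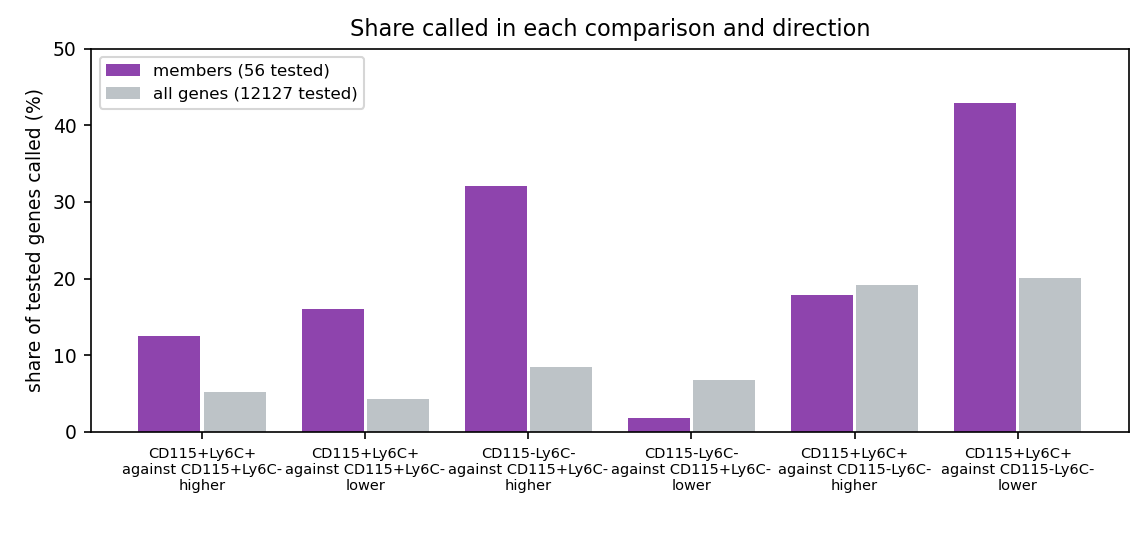
Share of tested genes called in each comparison and direction (y axis, percent), with the 56 members in purple beside all 12127 genes in grey. Members reach 42.9% for lower in CD115+Ly6C+ against CD115-Ly6C- and 32.1% for higher in CD115-Ly6C- against CD115+Ly6C-, while 17.9% and 19.2% stand side by side for higher in CD115+Ly6C+ against CD115-Ly6C-.

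A set of 8 members was called in every comparison and so parted all 3 subsets, 14.3% of the members tested where 3.33% of all genes were. Cd6, Cd27, Cd34, Cd72, Cd81, Cd96 and Cd244 were highest in CD115-, intermediate in CD115+Ly6C- and lowest in Ly6C+. Cd300a ran the other way. For none of the 8 did the libraries of any subset overlap those of another. Without 1 library, 4 to 7 of the 8 kept all 3 calls, with 4 kept without either CD115+Ly6C- library and 5 without either CD115- library. The promoters of Cd96, Cd72 and Cd81, which hold the largest differences among those in the RefSeq table used, and of Cd300a, the gene with the opposite order, are shown to set the regulatory sequence of both patterns side by side. Each run covers 250 bases before and 50 after an annotated start in GRCm38.p6, written 5′ to 3′ on the strand of the gene. The runs of Cd72 and Cd300a lie within the gene coordinates given below, so their annotated start is not the outermost end of the gene.
Cd96 promoter, chr16:46120199-46120498, minus strand: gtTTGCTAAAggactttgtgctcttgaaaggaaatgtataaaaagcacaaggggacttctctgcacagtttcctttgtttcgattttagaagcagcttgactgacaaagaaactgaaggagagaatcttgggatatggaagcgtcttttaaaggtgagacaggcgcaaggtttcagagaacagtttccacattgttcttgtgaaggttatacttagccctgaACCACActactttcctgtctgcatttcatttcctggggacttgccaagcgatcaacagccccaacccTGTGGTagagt
Cd72 promoter, chr4:43454577-43454876, minus strand: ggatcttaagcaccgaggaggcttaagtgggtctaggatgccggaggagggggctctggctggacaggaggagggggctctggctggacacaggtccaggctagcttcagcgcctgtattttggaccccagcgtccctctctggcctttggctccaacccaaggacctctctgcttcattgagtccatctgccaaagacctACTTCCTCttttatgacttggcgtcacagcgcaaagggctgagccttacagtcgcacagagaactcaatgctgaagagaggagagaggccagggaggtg
Cd81 promoter, chr7:143052500-143052799, plus strand: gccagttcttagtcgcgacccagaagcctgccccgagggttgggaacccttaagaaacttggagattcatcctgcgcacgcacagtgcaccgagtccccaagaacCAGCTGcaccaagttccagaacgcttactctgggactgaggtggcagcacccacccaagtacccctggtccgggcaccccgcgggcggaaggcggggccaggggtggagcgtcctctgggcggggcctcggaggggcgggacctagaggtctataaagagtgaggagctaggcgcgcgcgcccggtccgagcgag
Cd300a promoter, chr11:114889791-114890090, plus strand: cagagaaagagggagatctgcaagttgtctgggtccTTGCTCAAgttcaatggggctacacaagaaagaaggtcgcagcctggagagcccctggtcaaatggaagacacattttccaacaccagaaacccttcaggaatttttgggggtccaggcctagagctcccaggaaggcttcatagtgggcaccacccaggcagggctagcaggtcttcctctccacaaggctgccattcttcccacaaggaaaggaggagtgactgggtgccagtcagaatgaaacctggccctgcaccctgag
Capitals mark matches, on either strand, to the letters GAGGAAGT (the site of PU.1, the master factor of myeloid and B cell genes), TGTGGT (Runx factors), CAGCTG (an E-box of E proteins) and TTGCNNAA (C/EBP factors of myeloid cells). The Cd72 run holds the PU.1 letters from base 202, the Cd96 run the Runx letters from bases 223 and 290 and the C/EBP letters from base 3, the Cd81 run the E-box letters from base 106, and the Cd300a run the C/EBP letters from base 37. No match overlapped another in these runs. Over all 32851 promoters of the table, 3.2% held the PU.1 letters, 16.8% the Runx, 16.3% the E-box and 10.8% the C/EBP letters. Of the 59 promoters listed for 51 of the members, 5, 14, 8 and 12 held them. A match is a run of letters and was not shown to be a bound site.

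**Figure D2:**
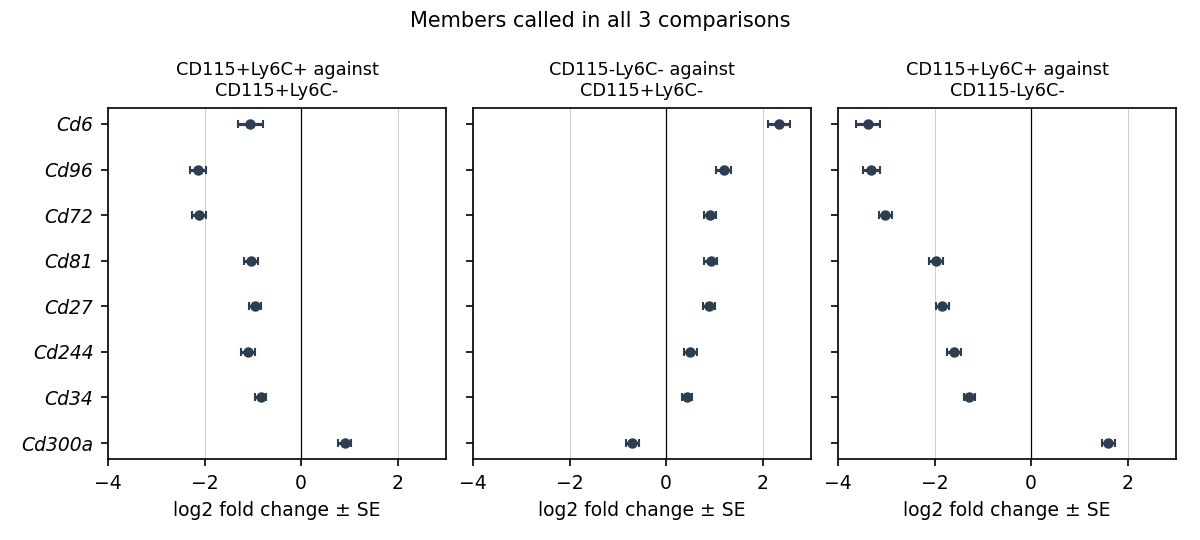
Log2 fold change (x axis, points) with its SE (bars) for the 8 members called in all 3 comparisons, 1 panel per comparison. The first 7 lie left of 0 for CD115+Ly6C+ against CD115+Ly6C-, right of 0 for CD115-Ly6C- against CD115+Ly6C- and at -3.38 to -1.28 for CD115+Ly6C+ against CD115-Ly6C-, and Cd300a lies on the other side of 0 in each.

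Among genes of T and NK cell antigens, Cd96 and Cd6 parted all 3 subsets. Cd96 encodes a receptor for the adhesion protein CD155 on T and NK cells (Entrez gene 84544, chromosome 16, 46035652 to 46120248 in GRCm38.p6, the build of all coordinates here). It stood at 4.58 and 3.87 FPKM in Ly6C+, 47.8 and 48.2 FPKM in CD115- and 21.7 and 17.1 FPKM in CD115+Ly6C-. The level in Ly6C+ was 9.94-fold lower than in CD115- (log2 change -3.31 ± 0.17 SE, edgeR adjusted p = 9.86e-06) and 4.37-fold lower than in CD115+Ly6C- (log2 change -2.13 ± 0.17 SE, edgeR adjusted p = 0.000484). CD115- stood 2.28-fold above CD115+Ly6C- (log2 change 1.19 ± 0.15 SE, edgeR adjusted p = 0.00273). Cd6, a scavenger receptor domain protein of T cells that binds CD166 (Entrez gene 12511, chromosome 19, 10789339 to 10830062), stood at 0.9 and 0.69 FPKM in Ly6C+, 8.98 and 9.77 FPKM in CD115- and 1.75 and 1.67 FPKM in CD115+Ly6C-. It was 10.4-fold lower in Ly6C+ than in CD115- (edgeR adjusted p = 4.32e-05), and 5.01-fold higher in CD115- than in CD115+Ly6C- (log2 change 2.33 ± 0.23 SE, edgeR adjusted p = 0.000866). Its smaller difference between Ly6C+ and CD115+Ly6C- (log2 change -1.05 ± 0.25 SE, edgeR adjusted p = 0.0344) passed no longer without any 1 library of these subsets or CD115- replicate 2 (0.0565 to 0.15) or with limma on FPKM (0.0603).

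Cd27, a tumour necrosis factor receptor family member that marks early lymphoid progenitors and binds CD70 (Entrez gene 21940, chromosome 6, 125232620 to 125237136), stood at 45 and 35.7 FPKM in Ly6C+, 173 and 157 FPKM in CD115- and 79.7 and 85 FPKM in CD115+Ly6C-. The steps between subsets were nearly equal on the log scale, with log2 fold changes of -0.95 for Ly6C+ and 0.89 for CD115-, each against CD115+Ly6C- (SE 0.12 each, edgeR adjusted p = 0.00366 and 0.00329). Cd28, the costimulatory receptor of T cells, had 3.24 and 2.42 FPKM in Ly6C+, 9.15 and 8.86 FPKM in CD115- and 4.64 and 4.55 FPKM in CD115+Ly6C-. It was called higher in CD115- than in Ly6C+ (log2 fold change -1.48 for Ly6C+ against CD115-, edgeR adjusted p = 0.00041) and than in CD115+Ly6C- (log2 change 0.85 ± 0.17 SE, edgeR adjusted p = 0.0144). The second call ended without either CD115+Ly6C- library or CD115- replicate 1 (0.0712 to 0.087).

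Cd4, the coreceptor that binds MHC class II, was low everywhere, with 0.05 and 0.02 FPKM in Ly6C+, 1.33 and 1.3 FPKM in CD115- and 0.26 and 0.16 FPKM in CD115+Ly6C-. Its level was higher in CD115- than in CD115+Ly6C- (log2 change 2.49 ± 0.55 SE, edgeR adjusted p = 0.0213), a call that ended without any 1 library of these subsets (0.0843 to 0.151), and lower in Ly6C+ than in CD115- (edgeR adjusted p = 0.000974). Cd5, a relative of Cd6 that dampens antigen receptor signals, was called in 1 comparison, between Ly6C+ at 0.73 and 0.68 FPKM and CD115- at 5.1 and 3.2 FPKM (log2 change -2.36 ± 0.47 SE, edgeR adjusted p = 0.00492). Cd7, an antigen of early T and NK cells, followed another order (Entrez gene 12516, chromosome 11, 121036747 to 121039478). It stood at 62.9 and 72.7 FPKM in Ly6C+, 75.9 and 98.9 FPKM in CD115- and 31.5 and 37.5 FPKM in CD115+Ly6C-. Both other subsets exceeded CD115+Ly6C-, with log2 fold changes of 1.05 in Ly6C+ and 1.23 in CD115- (SE 0.18 each, edgeR adjusted p = 0.0112 and 0.00373), and they were not called different from each other (log2 change -0.17 ± 0.17 SE, edgeR adjusted p = 0.453). Cd7 was the 1 member of this kind, 1.79% of those tested, where 0.256% of all genes were lower in CD115+Ly6C- than in both others. Its call in Ly6C+ against CD115+Ly6C- ended without CD115+Ly6C- replicate 1 (0.101) or Ly6C+ replicate 2 (0.0654).

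Of the 14 members of this role, 8 were tested. In Ly6C+ against CD115-, 6 (75.0%) were lower and 0 higher by edgeR, where 20.1% and 19.2% of all genes were. In CD115- against CD115+Ly6C- 6 (75.0%) were higher and 0 lower by edgeR, against 8.43% and 6.78% of all genes. In Ly6C+ against CD115+Ly6C- 3 (37.5%) were lower and 1 (12.5%) higher, against 4.34% and 5.26% of all genes. Each count of 6 includes Cd4, which reached the filter level in CD115- alone, so the filter favoured its direction. The counts of 0 stood at 0 at an unadjusted p under 0.05 and by DESeq2 too. The invariant chains of the T cell receptor complex were at or near 0. Cd3e was listed only in Ly6C+ replicate 1, at 0.04 FPKM, Cd3g only there, at 0.31 FPKM, and Cd3d reached 0.55 FPKM there and 0.14 FPKM or less elsewhere. Cd8a stood at 0.05 to 0.37 FPKM and Cd8b1, Cd160 and Cd226 at 0.32 FPKM or less.

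Of the genes of the B cell receptor complex, Cd79a was called and Cd79b was not, and the difference between these genes was not tested. Both encode the signalling chains that pair with surface immunoglobulin. Cd79b (Entrez gene 15985, chromosome 11, 106311341 to 106314562) was nearly level across the subsets, at 80.2 and 87.8 FPKM in Ly6C+, 77.7 and 81 FPKM in CD115- and 82.8 and 78.3 FPKM in CD115+Ly6C-. Its log2 fold changes were 0.14, -0.14 and 0.28 (SE 0.11 each) for Ly6C+ against CD115+Ly6C-, CD115- against CD115+Ly6C- and Ly6C+ against CD115-. The smallest edgeR adjusted p among them was 0.0866. Cd79a (Entrez gene 12518, chromosome 7, 24897497 to 24901858) stood at 1.01 and 0.96 FPKM in Ly6C+, 13 and 10.3 FPKM in CD115- and 0.18 and 1.33 FPKM in CD115+Ly6C-. Its level was higher in CD115- than in CD115+Ly6C- (log2 change 3.83 ± 0.62 SE, edgeR adjusted p = 0.0063) and lower in Ly6C+ than in CD115- (log2 change -3.36 ± 0.60 SE, edgeR adjusted p = 0.00305). Even there it remained below Cd79b by FPKM.

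Cd72, an inhibitory coreceptor of B cells with a lectin domain (Entrez gene 12517, chromosome 4, 43447724 to 43455102), gave the smallest edgeR adjusted p of any member. It stood at 11.2 and 11.8 FPKM in Ly6C+, 102 and 107 FPKM in CD115- and 55.9 and 47.3 FPKM in CD115+Ly6C-. The level in Ly6C+ was 8.1-fold lower than in CD115- (log2 change -3.02 ± 0.14 SE, edgeR adjusted p = 6.18e-06) and 4.31-fold lower than in CD115+Ly6C- (log2 change -2.11 ± 0.14 SE, edgeR adjusted p = 0.000302), and CD115- was 1.88-fold higher than CD115+Ly6C- (log2 change 0.91 ± 0.13 SE, edgeR adjusted p = 0.00353). Cd72 overlaps Tesk1, so reads of the overlap may be shared where the strand was not read. Cd22, a sialic acid binding inhibitory receptor, was higher in Ly6C+ at 9.1 and 8.01 FPKM than in CD115- at 3.66 and 6.28 FPKM (log2 change 0.97 ± 0.28 SE, edgeR adjusted p = 0.0243). That call ended without either Ly6C+ library or CD115- replicate 1 (0.0615 to 0.113), with library totals in place of TMM scaling (0.0515) and with limma on FPKM (0.058). Cd180, a Toll-like receptor relative, lay at 5.94 to 9.4 FPKM and was called in no comparison.

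**Figure D3:**
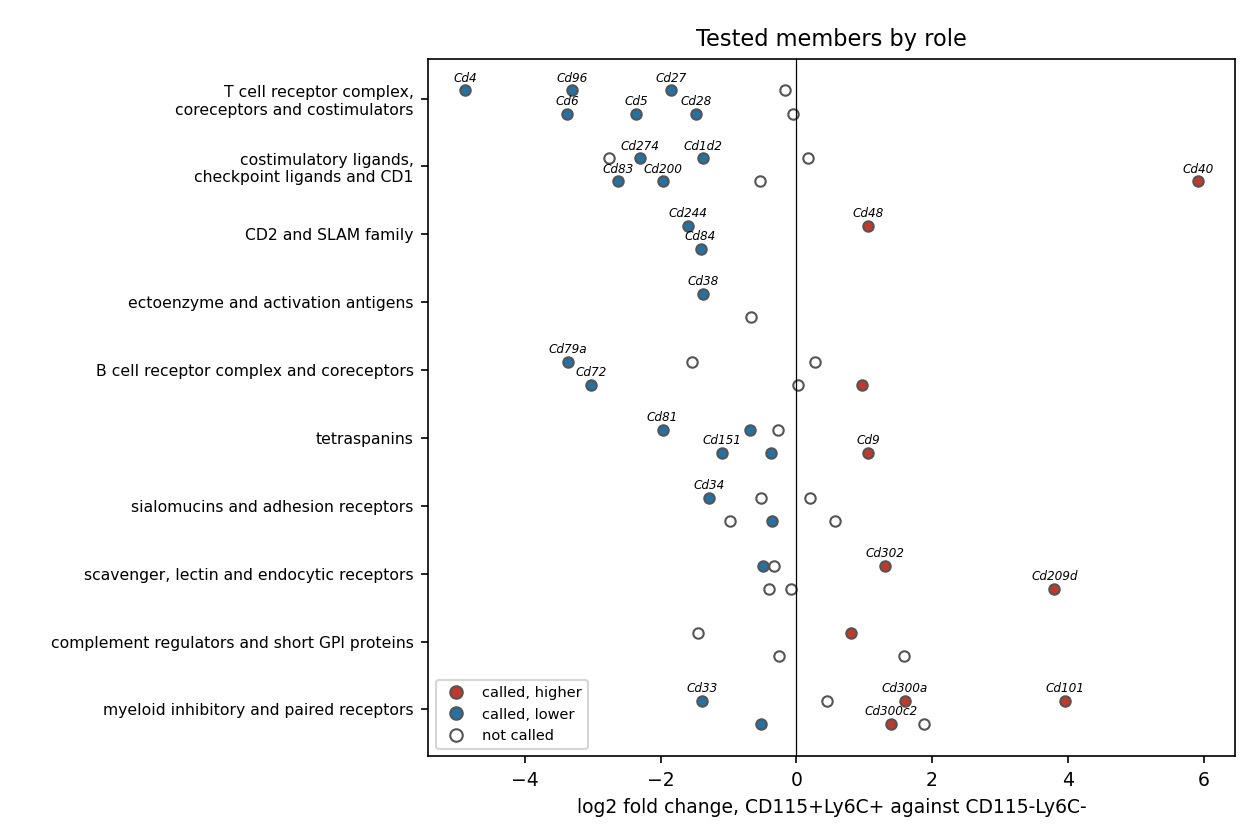
Log2 fold change for CD115+Ly6C+ against CD115-Ly6C- (x axis) of the 56 tested members, 1 point each, in rows by role, filled where called (24 lower in blue, 10 higher in red) and open where not. The called T cell antigen genes lie on the lower side at -4.88 to -1.48, and the called genes above 3 are Cd40 at 5.92, Cd101 at 3.96 and Cd209d at 3.80. Cd40, Cd101 and Cd209d reached the filter level in CD115+Ly6C+ alone, and Cd4, at -4.88, in CD115-Ly6C- alone. Each was tested because it was high there.

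The CD48 receptor pair of the SLAM family, adhesion receptors that pair leukocytes with one another, moved in opposite directions. Cd48 encodes a lipid-anchored surface protein and Cd244 encodes its receptor, also named 2B4. Both lie on chromosome 1 (171681245 to 171705258 and 171558718 to 171585316). Cd48 was the member with the highest mean level, at 769.9 and 821 FPKM in Ly6C+, 444 and 431 FPKM in CD115- and 484 and 523 FPKM in CD115+Ly6C-. Its level was higher in Ly6C+ than in CD115- (log2 change 1.06 ± 0.10 SE, edgeR adjusted p = 0.000168) and than in CD115+Ly6C- (log2 change 0.74 ± 0.10 SE, edgeR adjusted p = 0.00525), and the second call ended without CD115+Ly6C- replicate 1 (0.0531). Cd244 stood at 14 and 11.4 FPKM in Ly6C+, 43.6 and 44.3 FPKM in CD115- and 31.4 and 25.7 FPKM in CD115+Ly6C-. It was 3.02-fold lower in Ly6C+ than in CD115- (log2 change -1.60 ± 0.14 SE, edgeR adjusted p = 0.000108) and 2.14-fold lower than in CD115+Ly6C- (log2 change -1.10 ± 0.14 SE, edgeR adjusted p = 0.00358). The step of 1.41-fold between CD115- and CD115+Ly6C- (edgeR adjusted p = 0.0453) was lost without any 1 library of these subsets (0.0736 to 0.195) and with the trend on gene length removed (0.0849). Cd84, a SLAM receptor that binds itself, was higher in CD115- at 19 and 18.7 FPKM than in CD115+Ly6C- at 5.24 and 7.94 FPKM (log2 change 1.40 ± 0.20 SE, edgeR adjusted p = 0.0036) and than in Ly6C+ at 5.84 and 6.64 FPKM (edgeR adjusted p = 0.000952). Cd2 was at 0.23 FPKM or less.

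Tetraspanins are proteins that cross the membrane several times and gather other receptors into patches. Of the 6 members, 4 (66.7%) were lower in Ly6C+ than in CD115- and 1 (16.7%) was higher, where 20.1% and 19.2% of all genes were. Cd81, part of the coreceptor complex of B cells (Entrez gene 12520, chromosome 7, 143052750 to 143067930), stood at 29.8 and 35.8 FPKM in Ly6C+, 151 and 147 FPKM in CD115- and 78.1 and 65.9 FPKM in CD115+Ly6C-. It was 3.91-fold lower in Ly6C+ than in CD115- (log2 change -1.97 ± 0.14 SE, edgeR adjusted p = 3.93e-05), 2.06-fold lower than in CD115+Ly6C- (edgeR adjusted p = 0.00363), and 1.9-fold higher in CD115- than in CD115+Ly6C- (edgeR adjusted p = 0.00373). Cd9, known from platelets and myeloid cells, ran the other way, at 35 and 38.1 FPKM in Ly6C+, 21.6 and 18.5 FPKM in CD115- and 23.3 and 19.4 FPKM in CD115+Ly6C-. Ly6C+ exceeded CD115- (log2 change 1.06 ± 0.16 SE, edgeR adjusted p = 0.00131) and CD115+Ly6C- (log2 change 0.85 ± 0.16 SE, edgeR adjusted p = 0.0171), though the second call ended without either CD115+Ly6C- library or Ly6C+ replicate 2 (0.0549 to 0.0891). Cd37, a tetraspanin of lymphocytes and dendritic cells, had 65.5 and 63.3 FPKM in Ly6C+, 125 and 111 FPKM in CD115- and 71.9 and 78.9 FPKM in CD115+Ly6C- and was higher in CD115- than in CD115+Ly6C- (log2 change 0.53 ± 0.11 SE, edgeR adjusted p = 0.0172). Without CD115+Ly6C- replicate 1 or CD115- replicate 1 that call ended (0.119 and 0.141). Cd53 was high and nearly level, at 205 to 292 FPKM, and was called in no comparison. Cd151 and Cd82 were lower in Ly6C+ than in CD115- by log2 fold changes of -1.10 and -0.38 (edgeR adjusted p = 0.0287 and 0.0385), and each lost its call without any 1 library of these subsets (0.0548 to 0.237).

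Sialomucins and adhesion receptors were led by Cd34, the antigen by which stem and progenitor cells are sorted (Entrez gene 12490, chromosome 1, 194938821 to 194961292). Cd34 stood at 244 and 218 FPKM in Ly6C+, 666 and 619.9 FPKM in CD115- and 463 and 407 FPKM in CD115+Ly6C-. It was 2.42-fold lower in Ly6C+ than in CD115- (log2 change -1.28 ± 0.11 SE, edgeR adjusted p = 0.000105) and 1.79-fold lower than in CD115+Ly6C- (log2 change -0.84 ± 0.11 SE, edgeR adjusted p = 0.00398). The 1.35-fold step between CD115- and CD115+Ly6C- (edgeR adjusted p = 0.0357) ended without any 1 library of these subsets (0.0748 to 0.194). Cd164, another sialomucin of progenitors, was level at 146 to 164 FPKM, and its 3 log2 fold changes lay between -0.22 and 0.20. Cd24a, a heavily glycosylated short protein, was called in no comparison, at 107 and 70.8 FPKM in Ly6C+, 158 and 134 FPKM in CD115- and 69.9 and 102 FPKM in CD115+Ly6C-. Cd44, the hyaluronan receptor, was lower in Ly6C+ at 66.4 and 57.5 FPKM than in CD115- at 92 and 90.0 FPKM (log2 change -0.36 ± 0.10 SE, edgeR adjusted p = 0.0236). The Cd44 call ended with the length trend removed (0.455) and without either CD115- library or Ly6C+ replicate 2 (0.0977 to 0.15). Cd99l2 was higher in CD115- at 2.39 and 2.29 FPKM than in CD115+Ly6C- at 0.79 and 0.5 FPKM (log2 change 1.73 ± 0.36 SE, edgeR adjusted p = 0.0172), a call that ended without CD115+Ly6C- replicate 2 (0.0758) or CD115- replicate 1 (0.0813). Its relative Cd99 was called in no comparison.

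The role of inhibitory and paired receptors of myeloid cells, with which the signal Cd47 was grouped, held 7 tested members. Of these, 3 (42.9%) were higher and 2 (28.6%) lower in Ly6C+ than in CD115-, where 19.2% and 20.1% of all genes were. The 2 lower were Cd33 and Cd47. Of the 3 higher, Cd101 reached the filter level in Ly6C+ alone, so the filter favoured its direction. Cd300a encodes an inhibitory receptor for the lipids exposed on dying cells (Entrez gene 217303, chromosome 11, 114889152 to 114901946). It stood at 37.6 and 41.1 FPKM in Ly6C+, 14.8 and 15 FPKM in CD115- and 19.5 and 25 FPKM in CD115+Ly6C-. The level in Ly6C+ was 3.02-fold above CD115- (log2 change 1.60 ± 0.14 SE, edgeR adjusted p = 8.65e-05) and 1.86-fold above CD115+Ly6C- (log2 change 0.90 ± 0.13 SE, edgeR adjusted p = 0.00667). CD115- was lower than CD115+Ly6C- (log2 change -0.70 ± 0.13 SE, edgeR adjusted p = 0.0125), the 1 member lower in that comparison. The call of Ly6C+ against CD115+Ly6C- ended without CD115+Ly6C- replicate 1 (0.0531), and that of CD115- against CD115+Ly6C- without CD115+Ly6C- replicate 2 (0.0612) or CD115- replicate 1 (0.0848). Its neighbour in the cluster, Cd300c2, was higher in Ly6C+ at 6.04 and 5.67 FPKM than in CD115- at 2.41 and 2.51 FPKM (edgeR adjusted p = 0.01, 0.0589 without CD115- replicate 1). Cd300 genes are related copies and Cd300c2 overlaps Cd300ld4, so the split of reads between them is uncertain.

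Cd33, a sialic acid binding receptor that is used as a myeloid marker in human, was highest in CD115-, at 5.84 and 5.28 FPKM in Ly6C+, 15.3 and 15.5 FPKM in CD115- and 4.3 and 5.7 FPKM in CD115+Ly6C-. CD115- exceeded CD115+Ly6C- (log2 change 1.57 ± 0.17 SE, edgeR adjusted p = 0.00148), and Ly6C+ was lower than CD115- (log2 change -1.39 ± 0.17 SE, edgeR adjusted p = 0.000501). Cd47, the signal that restrains phagocytosis, was among the highest members at 330.1 and 317 FPKM in Ly6C+, 544 and 514 FPKM in CD115- and 397 and 387 FPKM in CD115+Ly6C-, and was lower in Ly6C+ than in CD115- (log2 change -0.52 ± 0.10 SE, edgeR adjusted p = 0.00386). Cd101 was low, at 0.41 and 0.6 FPKM in Ly6C+, 0 and 0.07 FPKM in CD115- and 0.02 and 0.14 FPKM in CD115+Ly6C-, and was called in Ly6C+ against CD115- (edgeR adjusted p = 0.0236), but not without either Ly6C+ library or CD115- replicate 1 (0.0595 to 0.128). Cd200r1, which encodes the receptor of CD200, was called in no comparison, at 2.64 to 6.54 FPKM. Cd200r3 was not called and Cd200r4 was not tested.

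Of the 8 costimulatory ligands, checkpoint ligands and CD1 genes tested, 1 (12.5%) was higher in Ly6C+ than in CD115-, Cd40, and 4 (50%) were lower, where 19.2% and 20.1% of all genes were. Cd40 reached the filter level in Ly6C+ alone, so the filter favoured its direction. Cd40, the tumour necrosis factor receptor family member through which T cells license antigen-presenting cells (Entrez gene 21939, chromosome 2, 165055614 to 165071654), stood at 2.03 and 2.3 FPKM in Ly6C+, 0 and 0.07 FPKM in CD115- and 0.17 and 0.07 FPKM in CD115+Ly6C-. CD115- held 2 counts and Ly6C+ 118, a ratio of 68.1 (exact Clopper-Pearson 95% interval 18.4 to 569, counting error only; edgeR adjusted p = 0.00157). Ly6C+ also exceeded CD115+Ly6C- (log2 change 4.16 ± 0.78 SE, edgeR adjusted p = 0.0172), a call that ended without any 1 library of these subsets (0.0689 to 0.0956). Cd274, which encodes the checkpoint ligand PD-L1, was lower in Ly6C+ at 0.6 and 0.72 FPKM than in CD115- at 3.44 and 3.99 FPKM (log2 change -2.30 ± 0.38 SE, edgeR adjusted p = 0.00193). CD115- also exceeded CD115+Ly6C-, at 1.85 and 0.93 FPKM (edgeR adjusted p = 0.0416), but not with the length trend removed (0.0553) or without either CD115- library or CD115+Ly6C- replicate 2 (0.116 to 0.134). Cd274 overlaps Plgrkt, with which reads may be shared.

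Cd200, the ligand of CD200R1, was highest in CD115- at 2.57 and 2.34 FPKM, against 0.5 and 0.61 FPKM in Ly6C+ and 0.29 and 0.73 FPKM in CD115+Ly6C-. It was called in both comparisons with CD115- (edgeR adjusted p = 0.0144 against Ly6C+ and 0.0247 against CD115+Ly6C-), and each call ended without either CD115- library (0.0502 to 0.125), without either Ly6C+ library in the first (0.0686 and 0.0548) and without CD115+Ly6C- replicate 1 in the second (0.12). Cd1d2 was lower in Ly6C+ at 1.85 and 2.34 FPKM than in CD115- at 5.99 and 6.72 FPKM (edgeR adjusted p = 0.0188), a call lost without either Ly6C+ library or CD115- replicate 2 (0.0539 to 0.0874). Its near-identical copy Cd1d1, which presents lipids to natural killer T cells, was level at 42.7 to 58.4 FPKM, and the split of reads between the copies is uncertain. Cd86, a ligand of CD28, was called in no comparison at 2.56 to 7.01 FPKM, and Cd80, the other CD28 ligand, reached at most 0.66 FPKM and was not tested.

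Of the 6 scavenger and lectin receptors tested, 2 (33.3%) were higher and 1 (16.7%) lower in Ly6C+ than in CD115-, where 19.2% and 20.1% of all genes were. Of the 2 higher, Cd209d reached the filter level in Ly6C+ alone, so the filter favoured its direction. Cd209d, a relative of the pathogen lectin DC-SIGN, stood at 1.96 and 2.91 FPKM in Ly6C+, 0.23 and 0.15 FPKM in CD115- and 0.22 and 0.3 FPKM in CD115+Ly6C-. Its level was higher in Ly6C+ than in CD115- (log2 change 3.80 ± 0.75 SE, edgeR adjusted p = 0.00483) and than in CD115+Ly6C- (log2 change 3.26 ± 0.72 SE, edgeR adjusted p = 0.0283). The second call ended without any 1 library of these subsets (0.0879 to 0.182) or without CD115- replicate 2 (0.0515), and the first without Ly6C+ replicate 2 (0.053) or CD115- replicate 2 (0.0528). Cd209 genes form a cluster of related copies on chromosome 8, so their values are uncertain. Cd209b, Cd209e and Cd209g were listed in Ly6C+ alone, at 0.62 FPKM or less. Of these, Cd209e held 19 and 8 counts in Ly6C+ and 0 in every other library. Cd302, a lectin receptor of phagocytes, was higher in Ly6C+ at 12.1 and 7.72 FPKM than in CD115- at 4.2 and 4.93 FPKM (log2 change 1.31 ± 0.28 SE, edgeR adjusted p = 0.00689). Cd93, the antigen AA4.1 of early B lineage and progenitor cells, was lower in Ly6C+ at 30.1 and 31 FPKM than in CD115- at 47.1 and 51 FPKM and CD115+Ly6C- at 43.3 and 46.4 FPKM (edgeR adjusted p = 0.00726 and 0.0283). Both Cd93 calls ended with the length trend removed (0.369 and 0.258), the second also without any 1 library of its subsets (0.0978 to 0.12), and the first without CD115- replicate 2 (0.0641). Cd163, the haemoglobin scavenger receptor of macrophages, was level at 17.5 to 22.8 FPKM. Cd320, the receptor for vitamin B12 bound to transcobalamin, lay at 14.6 to 22.5 FPKM and Cd209c at 0.6 to 1.42 FPKM, both called in no comparison. Cd163l1 held 0 and 0 counts in Ly6C+, 13 and 8 in CD115- and 4 and 4 in CD115+Ly6C-, and Cd36 was at 0.14 FPKM or less. Without the filter on low counts, Cd209e and Cd163l1 were the 2 members called among the 15 removed, both in Ly6C+ against CD115- (edgeR adjusted p = 0.0253 and 0.0409).

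Among short lipid-anchored proteins, Cd52 was higher in Ly6C+ than in the other subsets, at 691 and 642 FPKM in Ly6C+, 457 and 411 FPKM in CD115- and 365 and 402 FPKM in CD115+Ly6C-. The difference from CD115- (log2 change 0.81 ± 0.11 SE, edgeR adjusted p = 0.000662) shrank to a log2 fold change of 0.18 with the length trend removed (edgeR adjusted p = 0.212), and the transcript of 531 bases is far shorter than the median of 2810 bases over the genes tested. The difference from CD115+Ly6C- kept its call. The complement regulators Cd46, Cd55 and Cd59a were called in no comparison, and Cd59b, the related copy of Cd59a, was not tested. Cd38, an enzyme on the cell surface that consumes NAD, was lower in Ly6C+ at 1.1 and 0.86 FPKM than in CD115- at 2.57 and 3.29 FPKM (log2 change -1.38 ± 0.30 SE, edgeR adjusted p = 0.00734) and CD115+Ly6C- at 2.6 and 2.21 FPKM (edgeR adjusted p = 0.0406). The last of these ended without any 1 library of Ly6C+ or CD115+Ly6C- (0.0818 to 0.185) and with the length trend removed (0.0559).

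**Figure D4:**
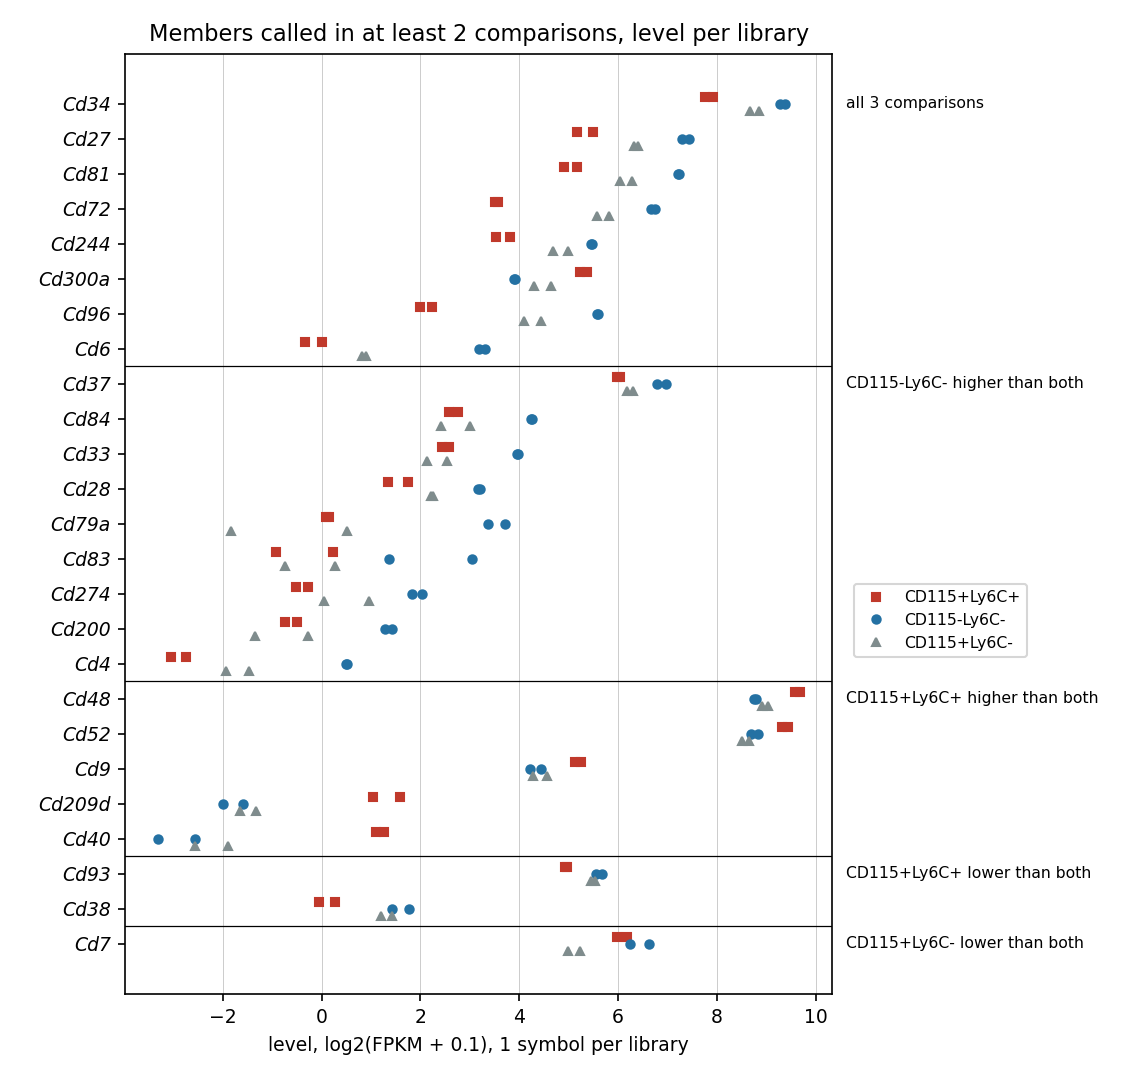
Level in each library, as log2(FPKM + 0.1) on the x axis, of the 25 members called in at least 2 comparisons, with red squares for CD115+Ly6C+, blue circles for CD115-Ly6C- and grey triangles for CD115+Ly6C-. In the top block CD115+Ly6C- lies between the others for all 8 genes, and in the second block 9 genes are higher in CD115-Ly6C- than in both others.

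The members called in at least 2 comparisons thus fell into few patterns. Besides the 8 that parted every pair, 9 were higher in CD115- than in both others with no call between those, 16.1% of the members tested where 5.65% of all genes were. These were Cd4, Cd28, Cd33, Cd37, Cd79a, Cd83, Cd84, Cd200 and Cd274. Another 5 were higher in Ly6C+ than in both others (8.93% against 3.18% of all genes), namely Cd9, Cd40, Cd48, Cd52 and Cd209d. Cd40 and Cd209d reached the count filter in Ly6C+ alone, and Cd4 of the previous group in CD115- alone. For these genes the filter favoured the pattern. Cd38 and Cd93 were lower in Ly6C+ than in both others (3.57% against 2.16%). By edgeR 0 members were higher in CD115+Ly6C- than in both others, 0 also at an unadjusted p under 0.05 and by DESeq2, where 0.0495% of all genes were. Lower in CD115- than in both others was 1 member by edgeR, with 2 at an unadjusted p under 0.05 and 2 by DESeq2. Once members with a call between those others (adjusted p under 0.05) were left out, each of these counts was 0. Of all genes, 4.63% were lower in CD115- with no such call by edgeR. In all, 36 of the 56 members were called in at least 1 comparison and 20 in none.

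Cd69 and Cd83 differed between libraries of the same subset. Cd69 encodes an early activation antigen that keeps cells in tissue. It stood at 46.6 and 149 FPKM in Ly6C+, 95.6 and 261 FPKM in CD115- and 70.3 and 195 FPKM in CD115+Ly6C-. The library numbered 2 was the higher one in every subset, and the subsets overlapped. No comparison of subsets passed for Cd69 (log2 fold change -0.35, 0.32 and -0.67 for Ly6C+ against CD115+Ly6C-, CD115- against CD115+Ly6C- and Ly6C+ against CD115-, SE 0.64 each, edgeR adjusted p = 0.757, 0.768 and 0.438). Within each replicate number, CD115- held the highest value and Ly6C+ the lowest. Cd83, an antigen of mature dendritic cells, stood at 0.43 and 1.08 FPKM in Ly6C+, 2.46 and 8.16 FPKM in CD115- and 0.5 and 1.1 FPKM in CD115+Ly6C-, again with the second library higher in each subset. It was called higher in CD115- than in CD115+Ly6C- (log2 change 2.62 ± 0.68 SE, edgeR adjusted p = 0.0356) and lower in Ly6C+ than in CD115- (log2 change -2.63 ± 0.68 SE, edgeR adjusted p = 0.0159). The first call ended without CD115- replicate 2 (0.215) or either CD115+Ly6C- library (0.207 and 0.0838), and the second without CD115- replicate 2 (0.152) or Ly6C+ replicate 1 (0.0838). A fit with the replicate number as a block, chosen after the Cd69 values had been seen, kept both Cd83 calls. Its log2 change was 2.51 ± 0.36 SE for CD115- against CD115+Ly6C- (edgeR adjusted p = 0.00605). For Ly6C+ against CD115- it was -2.54 ± 0.36 SE (edgeR adjusted p = 0.00161). The labels do not say what the replicate numbers mark.

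**Figure D5:**
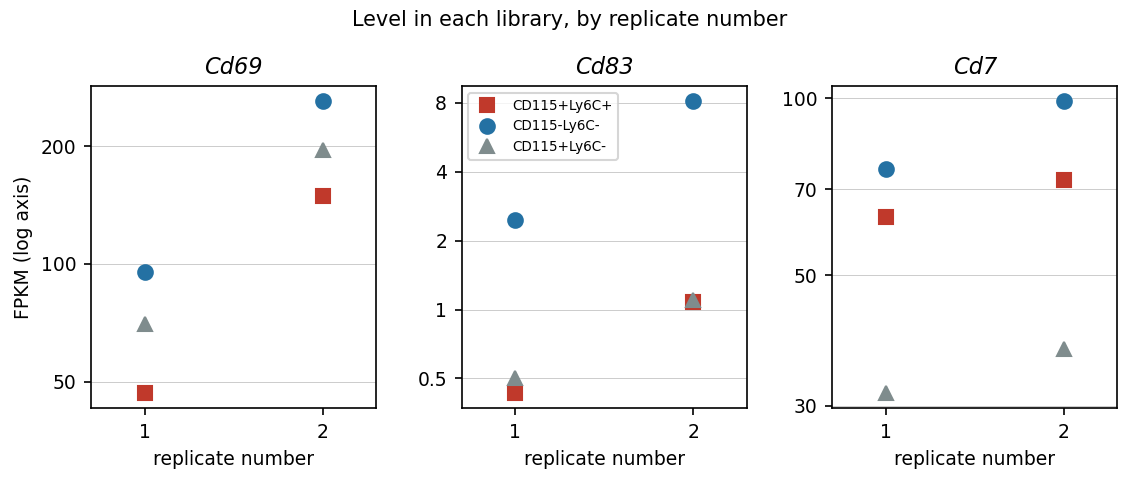
Level (y axis, FPKM, log axis) of Cd69, Cd83 and Cd7 in each library against its replicate number (x axis), with symbols by subset. Cd69 lies at 46.6 to 95.6 FPKM in the libraries numbered 1 and at 149 to 261 FPKM in those numbered 2, while for Cd7 both CD115+Ly6C- libraries lie below all others.

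A list of other CD antigens whose genes carry another symbol was counted in the same way. Its genes were picked by name and not by a rule, so the shares below hold for the listed genes and not for all such antigens. Of 54 such genes looked for, 48 were tested. They include Csf1r, the gene of the sorted protein CD115. It is counted as higher in Ly6C+ than in CD115- and as lower in CD115- than in CD115+Ly6C-. The sort favoured those directions, so its calls are no independent result. In Ly6C+ against CD115-, 17 (35.4%) were higher and 16 (33.3%) lower, against 19.2% and 20.1% of all genes (median log2 fold change 0.29). In CD115- against CD115+Ly6C-, 12 (25.0%) were higher and 7 (14.6%) lower, against 8.43% and 6.78% of all genes (median 0.03). In Ly6C+ against CD115+Ly6C-, 9 (18.8%) were higher and 6 (12.5%) lower, against 5.26% and 4.34% of all genes (median 0.17). Itga4, the integrin chain CD49d, stood at 3.93 and 3.61 FPKM in Ly6C+, 23.2 and 20.4 FPKM in CD115- and 8.53 and 8.54 FPKM in CD115+Ly6C-. Ccr2, the monocyte chemokine receptor CD192, stood at 153 and 176 FPKM in Ly6C+, 15.3 and 23.6 FPKM in CD115- and 64.6 and 70.1 FPKM in CD115+Ly6C-. The integrin gene followed the order of Cd34 and the chemokine receptor that of Cd300a, and neither overlapped between subsets.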

How the data were processed

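The submitters' processing notes name Bowtie2, RSEM and the build mm10, with versions and settings not given in the sources used here. Per the file headers, the authors deposited an expected count per gene, with gene length and FPKM, for each library, and a joint table that they deposited repeats the FPKM (largest difference 0.0). Of the counts above 0, 12.6% were not whole (tolerance 1e-06). Genes missing from a table were taken as 0. The strandedness is not stated, and intervals cover counting error only.

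Expected counts were rounded and tested with edgeR 4.0.16 in R 4.3.3 (filterByExpr, minimum count 10 and total 15, TMM scaling, quasi-likelihood F test, Benjamini-Hochberg over 12127 genes, threshold 0.05), with all 6 libraries in 1 fit and 1 coefficient per subset. The common dispersion was 0.0231, with 3 residual and 5.65 prior degrees of freedom. SE is the log2 fold change over the square root of F. The steps were tested on simulated data. The members, roles, marker lists, promoters and motifs were chosen with earlier results of these data known. Values per library were planned for the 8 largest and 8 smallest called changes per comparison with subsets that do not overlap and at least 1 FPKM, the 6 highest members and the leading member of each role. Cd69 and other members named beyond these were chosen after their values were seen. Results for some genes are not reported here. Alternatives were DESeq2 1.42.0, library totals, no filter, a replicate block, each library left out, each library's trend on gene length removed, and limma 3.58.1 on log2(FPKM + 1). Coordinates and promoters are those of RefSeq for GRCm38.p6, the assembly of mm10, where all 71 members matched.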

Additional observations from a re-analysis of the deposited data

How the results depend on the processing

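No called difference of a named member changed its direction under the alternatives run. Of the 69 member calls, 69 were kept with DESeq2 and with no filter, 68 with library totals, 67 with limma and with the replicate block, 62 with the length trend removed and 53 to 57 with 1 library left out. With 1 library left out, the members called ranged over 1 to 8 higher and 6 to 9 lower in CD115+Ly6C+ against CD115+Ly6C-, 10 to 20 and 0 to 1 in CD115-Ly6C- against CD115+Ly6C-, and 7 to 11 and 17 to 27 in CD115+Ly6C+ against CD115-Ly6C-. Called in all 3 comparisons were 4 to 7, and 1 subset stood apart for 10 to 15. For CD antigens under other symbols the ranges were 1 to 9 and 3 to 7, 7 to 12 and 3 to 6, and 9 to 17 and 12 to 15 in the same order. A subset left with 1 library is assumed to vary like the others. With all libraries kept, the other alternatives gave 7 to 10 higher and 7 to 10 lower members in the first comparison, 16 to 23 and 1 to 2 in the next (2 lower with DESeq2), and 9 to 11 and 24 to 30 in the last, with 7 to 10 in all 3 and 13 to 25 for 1 subset apart. Of the other CD antigens, library totals and limma each called 4 lower in CD115-Ly6C- against CD115+Ly6C-, and library totals 11 higher in CD115+Ly6C+ against CD115-Ly6C-. The cause was not tested. Library totals moved the median of all genes by -0.08, 0.14 and -0.22 (log2) in CD115+Ly6C+ against CD115+Ly6C-, CD115-Ly6C- against CD115+Ly6C- and CD115+Ly6C+ against CD115-Ly6C-. The share of called genes that were higher was then 38.4%, 74.3% and 30.2%, against 54.8%, 55.4% and 48.9% with TMM (limma on FPKM 50.8%, 72.7% and 32.9%). Deviations of same-numbered libraries correlated across all genes at 0.152, -0.004 and -0.01, a measure that cannot show whether a few genes share them. For the replicate number 12 genes were called, Cd69 among them, as given below. With the number as a replicate block, 7 members were higher and 8 lower in CD115+Ly6C+ against CD115+Ly6C-, 17 and 1 in CD115-Ly6C- against CD115+Ly6C-, and 10 and 26 in CD115+Ly6C+ against CD115-Ly6C-, and Cd69 was called in the last (log2 fold change -0.72, SE 0.12, edgeR adjusted p = 0.00306). Under the block 2 calls of members were lost, with edgeR adjusted p of 0.0564 for Cd38 in CD115+Ly6C+ against CD115+Ly6C- and 0.0553 for Cd274 in CD115-Ly6C- against CD115+Ly6C-. The 15 members that the filter removed had at most 32 counts in all.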

Other observations

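Cd69 was the gene with the smallest p for the replicate number among all 12127 genes tested. The number was tested as a coefficient of the edgeR block fit, an alternative chosen after the Cd69 values had been seen. The fitted log2 fold change of Cd69 for replicate 2 over replicate 1 was 1.55 (2.94-fold, edgeR adjusted p = 0.00426), and the ratio was 1.71, 1.49 and 1.46 on the log2 scale in CD115+Ly6C+, CD115-Ly6C- and CD115+Ly6C-. The 12 genes called were all higher in the libraries numbered 2. They include the immediate early genes Fos, Egr1, Btg2, Dusp1, Nr4a1 and Ppp1r15a, which cells switch on within minutes of a stimulus, the chemokines Ccl3 and Ccl4, the signalling regulator Rgs1, the eosinophil peroxidase Epx, and Cd69. Cd83 had a log2 fold change of 1.46 and was not called (edgeR adjusted p = 0.405). At an unadjusted p under 0.05, 530 genes passed, 4.37% of those tested, below the 5% of the threshold itself. What the replicate number marks is not stated in the labels, and its part in the levels of Cd69 and Cd83 was not tested further.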
